A study of Mus musculus with 54 samples.

Results

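The 8 genes described here mark radial glia and neural stem cells: Fabp7, Ptn, Bcan, Ptprz1, Egfr, Aqp4, Gfap and Prom1. They were taken by gene symbol from both deposited RNA-seq tables of this mouse embryonic stem (ES) cell study, and each symbol had 1 entry in each table. They are thus 8 of 38363 entries in the table of retinoic acid (RA) treated cells and 8 of 39067 entries in the table of sorted lineages and LIF withdrawal. The values are FPKM, a read count scaled by transcript length and library depth. The 2 tables cover 20 of the 54 samples of the series, and the other 34 were not analysed here.

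The RA table compared cells with a 58 kb deletion of the Haunt locus (58 kb KO; libraries KO-i and KO-j) with wild-type cells (WT; libraries WT-1 and WT-2), each at days 4 and 2. Haunt is a long noncoding RNA encoded beside the HOXA cluster. Both genotypes share 1 ES cell line of strain 129/Ola, which carries GFP at Sox1, a gene of early neural cells. They were held for a day in serum-free N2B27 medium with LIF and 2 inhibitors, and then kept in N2B27 with 2 µM RA and without LIF or inhibitors. The second table holds 7 columns. The neural stem cell (NSC) and neural progenitor cell (NPC) columns both start from the same Sox1-GFP line, kept for 6 days in N2B27 and sorted for GFP. The NPC library was made from the sorted cells, and the NSC library after their expansion to passage 15 with EGF and FGF-2 at 10 ng/ml each. Mesendoderm (ME) came from ES cells with GFP at T (Brachyury), sorted for GFP after 6 days without LIF. The other columns are WT ES cells at day 0 in serum and LIF and at days 2, 4 and 6 of LIF withdrawal. NSC, NPC, ME and day 4 (line CJ7) are single libraries. The day 0 column is taken as the authors' mean of 3 libraries (CJ7 and JF4), that of day 2 of 2 (J1 and CJ7) and that of day 6 of 3 (JF4, J1 and CJ7). This was read from the column names and the labelled samples, and nothing states how the means were formed. Lineage columns therefore also differ in cell line, and their differences have no replicate check.

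Radial glia are the neural stem cells of the developing brain; they line the ventricles and give rise to neurons and then to glia. In culture, EGF and FGF-2 keep NSC dividing, and such cells share many radial glial genes. Among the members, Fabp7 encodes the brain fatty acid binding protein and is a classical radial glia marker. Ptn encodes pleiotrophin, a secreted heparin-binding growth factor, and Ptprz1 a receptor tyrosine phosphatase that binds pleiotrophin. Egfr encodes the receptor for EGF. Bcan encodes brevican, a chondroitin sulfate proteoglycan of the brain matrix. Prom1 encodes prominin-1 (CD133), a membrane protein of cell protrusions in neuroepithelial and many other cells. Gfap, an intermediate filament, and Aqp4, a water channel, are genes of mature astrocytes, and Gfap is also used by adult neural stem cells.

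In the files' build, mm9, Fabp7 (NM_021272) lies on chromosome 10 at 57504729-57508256, and Ptn (NM_008973) and Ptprz1 (NM_001081306) lie on chromosome 6 at 36665663-36761361 and 22825502-23002916. Prom1 (NM_001163577) spans 44384861-44492975 of chromosome 5. Egfr (NM_007912) starts at 16652206 on chromosome 11, and its entry ends at 16787661 in the RA table and at 16813910 in the lineage table. The Bcan entry (NM_001109758) on chromosome 3 starts at 87796436 in the RA table and at 87791453 in the lineage table, and both end at 87804278. The Gfap entries on chromosome 11 likewise differ in span, so levels of Bcan, Egfr and Gfap rest on different gene models in the 2 tables. Values are compared only within a table, since the tables were also normalized separately.

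The 4 members with the highest NSC levels are shown here by the 250 bases before their RefSeq start (build GRCm38.p6), since these are the genes that were high together in the NSC library. Each is written 5′ to 3′ on the strand of the gene. The windows are chr10:57784673-57784922 (+) for Fabp7, chr6:36810180-36810429 (-) for Ptn, chr3:88000357-88000606 (-) for Bcan and chr6:22875252-22875501 (+) for Ptprz1. Capitals mark matches, on either strand, to 6 short motifs.
Fabp7: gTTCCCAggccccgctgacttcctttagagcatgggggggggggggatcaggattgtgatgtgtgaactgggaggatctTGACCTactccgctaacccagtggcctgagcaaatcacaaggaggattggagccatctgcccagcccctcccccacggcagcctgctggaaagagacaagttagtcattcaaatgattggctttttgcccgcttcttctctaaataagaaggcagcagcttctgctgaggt
Ptn: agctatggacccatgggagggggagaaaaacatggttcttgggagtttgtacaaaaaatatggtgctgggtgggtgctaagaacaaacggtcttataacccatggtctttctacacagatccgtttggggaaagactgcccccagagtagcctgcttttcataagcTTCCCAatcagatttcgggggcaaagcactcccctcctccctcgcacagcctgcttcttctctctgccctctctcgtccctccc
Bcan: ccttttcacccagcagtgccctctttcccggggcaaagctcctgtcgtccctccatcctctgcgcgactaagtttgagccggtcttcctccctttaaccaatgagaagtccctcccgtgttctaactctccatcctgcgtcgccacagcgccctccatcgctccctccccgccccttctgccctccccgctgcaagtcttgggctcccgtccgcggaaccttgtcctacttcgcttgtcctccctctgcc
Ptprz1: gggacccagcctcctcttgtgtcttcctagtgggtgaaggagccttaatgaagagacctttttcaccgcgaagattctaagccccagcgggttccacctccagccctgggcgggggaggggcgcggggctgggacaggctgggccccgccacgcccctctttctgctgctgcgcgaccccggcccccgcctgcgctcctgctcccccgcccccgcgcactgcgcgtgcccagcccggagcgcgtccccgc
The motifs searched were TTGGCA (NFI half-site, in 12.3% of 32851 promoter windows of this length), ACAATG (SOX core, 10.7%), ATGCAAAT (POU octamer, 1.6%), TGGGAA (RBPJ core, 21.6%), CAGCTG (E-box, 13%) and AGGTCA (nuclear receptor half-site, 14%). Fabp7 held an RBPJ core 249 bases before the start and a nuclear receptor half-site 171 bases before it, and Ptn an RBPJ core 84 bases before the start. No letters of the 6 motifs were found in the windows of Bcan and Ptprz1, and no matches overlapped. In base composition the Ptprz1 window stood at 71.6% G and C, the Bcan window at 62.0%, the Fabp7 window at 54.8% and the Ptn window at 52.0%. Outside this group, the Gfap window held an RBPJ core and a nuclear receptor half-site, 1 of 2 Prom1 windows held an RBPJ core, and the Egfr window held no match.

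Among the sorted and expanded lineages, 5 of the 8 members were more than 2 log2 units higher in NSC than in ES cells at day 0, on the log2(FPKM + 1) scale used for all differences here, and none was that much lower. Of 12829 genes of at least 1 FPKM in either column, 7.9% were that much higher and 6.27% that much lower. The same 5 members, Fabp7, Ptn, Bcan, Ptprz1 and Egfr, were also more than 2 log2 units higher in NSC than in NPC, where 4.23% of 12470 genes were. Fabp7, Bcan and Ptprz1 reached 1 FPKM in NSC and not in ES cells, and Bcan in NSC and not in NPC. In those comparisons they could be counted only as higher, so their counts are given as a description. Aqp4 and Gfap were under 1 FPKM in NSC, NPC and ES cells and lay outside the genes behind these shares. These are bulk libraries, in which fewer cells of a type and less RNA per cell cannot be told apart. Depth came to about 34.5 M reads for NSC, 27.8 M for NPC, 40.6 M for ME and 36.5 M for day 4, judged from the steps between low values.

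**Figure D1:**
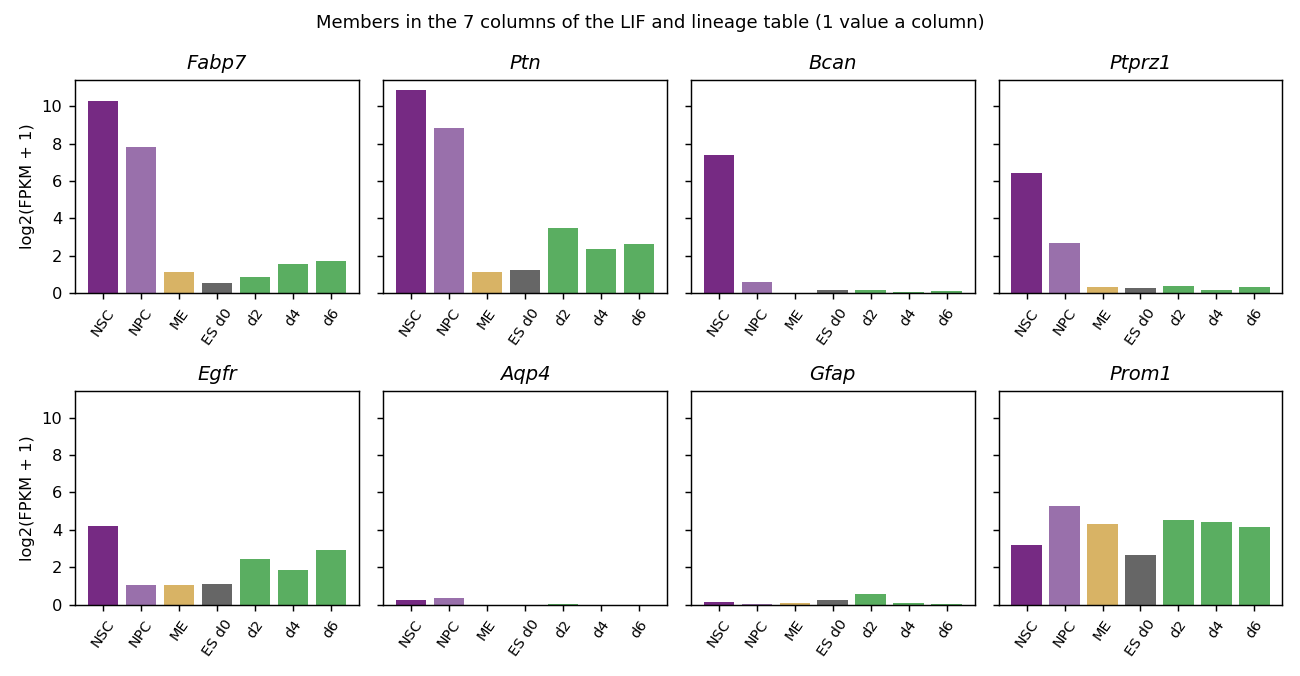
Level of each member, as log2(FPKM + 1), in the 7 columns of the lineage table. Each bar is 1 column, and NSC, NPC, ME and day 4 (d4) are single libraries. Those of ES day 0 (ES d0), day 2 (d2) and day 6 (d6) of LIF withdrawal are taken as the authors' means. Fabp7, Ptn, Bcan, Ptprz1 and Egfr are highest in NSC, Prom1 is highest in NPC, and Aqp4 and Gfap stay under 1 FPKM in every column.

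Ptn, the secreted ligand, stood at 1885 FPKM in NSC, 452 in NPC, 1.16 in ME and 1.37 in ES cells at day 0. It ranked 17th by level among all entries of the NSC column and 141st in NPC. The NSC level exceeded the NPC level by 2.06 log2 units and the ES level by 9.64. Ptprz1, which encodes a receptor for pleiotrophin, stood at 83.8 FPKM in NSC, 5.38 in NPC, 0.274 in ME and 0.202 in ES cells, and ranked 891st in NSC. Its level in NSC was 15.6 times that in NPC, while for Ptn this ratio was 4.17. Ligand and receptor gene were thus both highest in NSC and next highest in NPC, with the ligand at the higher level in both.

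Fabp7 stood at 1227 FPKM in NSC, 225 in NPC, 1.23 in ME and 0.477 in ES cells, and ranked 36th in NSC and 288th in NPC. The difference from NPC was 2.44 log2 units, close to that of Ptn. Bcan set NSC apart from NPC more than any other member did. It stood at 169 FPKM in NSC, 0.525 in NPC and 0.125 in ES cells, and was listed at 0 in ME. Its log2 difference between NSC and NPC was 6.80, and in NPC it lay only 0.44 above ES cells. Fabp7 and Ptn were therefore already more than 7 log2 units above ES cells in NPC, at 7.26 and 7.58, where Bcan was not.

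Egfr, whose protein binds the EGF in the NSC medium, stood at 17.7 FPKM in NSC, 1.10 in NPC, 1.04 in ME and 1.14 in ES cells. The NPC, ME and ES levels were nearly alike, and the NSC level was 3.15 log2 units above NPC. Prom1 ran the other way, with 8.12 FPKM in NSC, 38.4 in NPC, 19.1 in ME and 5.29 in ES cells. Its NSC level lay 2.11 log2 units below NPC, and 3.82% of 12470 genes lay more than 2 log2 units below. In NPC it was 2.65 log2 units above ES cells, which made it, with Fabp7, Ptn and Ptprz1, 1 of 4 members past 2 log2 units there (4.39% of 12653 genes). Of these, Fabp7 and Ptprz1 reached 1 FPKM in NPC and not in ES cells, and could be counted there only as higher.

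The astrocyte members stayed low in both neural columns. Aqp4 stood at 0.198 FPKM in NSC and 0.266 in NPC and was listed at 0 in ME and in ES cells. Gfap stood at 0.117 FPKM in NSC, 0.0144 in NPC, 0.0696 in ME and 0.162 in ES cells, so the difference between NSC and ES cells was -0.057 log2 units. Set against the name of the group, Fabp7, Ptn, Bcan, Ptprz1 and Egfr were highest in NSC, Aqp4 and Gfap were near 0 in NSC, and Prom1 was higher in NPC, ME and later LIF withdrawal than in NSC.

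During LIF withdrawal Fabp7, Ptn, Bcan, Ptprz1 and Egfr stayed below their NSC levels in all 4 columns. Ptn stood at 1.37 FPKM at day 0, 10.1 at day 2, 4.23 at day 4 and 5.19 at day 6. Egfr stood at 1.14, 4.47, 2.59 and 6.50 FPKM at these 4 times, and Prom1 at 5.29, 21.6, 20.6 and 16.6. Fabp7 stood at 0.477, 0.843, 1.99 and 2.27 FPKM, each value above that of the time before. Bcan, Ptprz1, Gfap and Aqp4 were under 0.5 FPKM at all 4 times. Against day 0, Ptn was 2.23 log2 units higher at day 2, where 0.533% of 12012 genes were more than 2 units higher, and no other member passed that mark. No member passed it at day 4 or day 6, where 1.4% of 12103 and 2.69% of 12326 genes did, or was more than 2 units higher in ME than in ES cells, where 2.23% of 12217 were. Prom1 stood 1.85 log2 units higher at day 2, Egfr 1.81 at day 6 and Prom1 1.67 in ME.

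The genes around the members were counted as whole lists. Of 12 genes of the Ptn family and its receptors, 9 reached 1 FPKM in NSC or NPC, and 2 of them were more than 2 log2 units higher in NSC than in NPC and 1 was lower, with a median of 0.45 against 0.0050 over all genes compared. Mdk, the other member of the pleiotrophin family, was the lower one, at 60.0 FPKM in NSC and 406 in NPC. Both growth factors of this family were thus well expressed, with Ptn higher in NSC and Mdk higher in NPC. Lrp1, an endocytic receptor that binds both factors, stood at 67.6 FPKM in NSC and 14.8 in NPC. Ptprs, the receptor phosphatase of this list, stood at 69.8 FPKM in NSC and 50.8 in NPC.

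All 4 of the 10 lectican matrix partners that reached 1 FPKM in NSC or NPC were more than 2 log2 units higher in NSC. Tnc (tenascin-C, a glycoprotein of the stem cell niche) stood at 232 FPKM in NSC and 0.523 in NPC, and Ncan (neurocan, another lectican of the brain) at 127 FPKM in NSC and 10.5 in NPC. Tnc, under 1 FPKM in NPC, could be counted only as higher in NSC. Vcan (versican) stood at 43.0 FPKM in NSC and 7.83 in NPC, and Cspg5 (neuroglycan C) at 18.6 FPKM in NSC and 1.81 in NPC. The other 6 partners were under 1 FPKM in NSC. None of the 8 genes compared in the EGF receptor family and ligand list passed 2 log2 units in either direction, with a median of -0.057. Erbb2, the partner receptor of Egfr, stood at 9.43 FPKM in NSC and 9.31 in NPC, and Hbegf, a ligand of Egfr, at 5.56 FPKM in NSC and 3.12 in NPC. Egf itself stood at 0.238 FPKM in NSC and 0.167 in NPC.

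Of 15 relatives of Fabp7, Aqp4, Gfap and Prom1, 8 were compared, of which 0 were more than 2 log2 units higher in NSC than in NPC and 2 were lower, with a median of -1.06. Fabp5, a fatty acid binding protein also found in radial glia, stood at 496 FPKM in NSC and 221 in NPC. Vim (vimentin), the filament that precedes Gfap in glia, stood at 1425 FPKM in NSC and 1186 in NPC, and Nes (nestin) at 522 FPKM in NSC and 142 in NPC. Vim and Nes were thus abundant in NSC and NPC, where Gfap was under 1 FPKM, as it was in every lineage column. They were not limited to the neural columns. Vim stood at 1394.5 FPKM at day 6 of LIF withdrawal, 565 in ME and 230 in ES cells at day 0. Nes stood there at 84.6, 65.6 and 21.1 FPKM.

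Marker lists of the cell types that these cultures could hold were counted beside the members. Of 17 other radial glia and NSC genes, 4 were more than 2 log2 units higher in NSC than in NPC and 4 were lower, with a median of -0.023. That list shares Tnc, Vim, Nes and Fabp5 with the lists above. Against ES cells, 12 of 15 were higher in NSC and none was lower. Of 9 astrocyte genes, 5 were higher in NSC than in NPC and 0 were lower; the summed level of all 10 was 502 FPKM in NSC and 102 in NPC, with 1 and 4 of them under 1 FPKM. Of 5 oligodendrocyte lineage genes, 2 were higher in NSC: Olig2 stood at 211 FPKM in NSC and 0.227 in NPC, and Olig1 at 115 FPKM in NSC and 0 in NPC, while Sox10 was listed at 0 in NSC and Pdgfra stood at 0.271 FPKM. Of 10 neuronal genes, 1 was higher in NSC and 5 were lower, and their sum was 95.4 FPKM in NSC, of which Map2 made 89.4, and 298 FPKM in NPC. Pluripotency genes summed to 2.61 FPKM in NSC and 124 FPKM in NPC, with Pou5f1 at 0.391 FPKM in NSC and 91.0 in NPC. List genes under 1 FPKM in NPC, such as Olig1 and Olig2, could be counted only as higher in NSC. Those under 1 FPKM in NSC could be counted only as lower. The part of these cell types in the members' values was not tested. The plot of lists by difference between NSC and NPC places the members beside them.

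**Figure D2:**
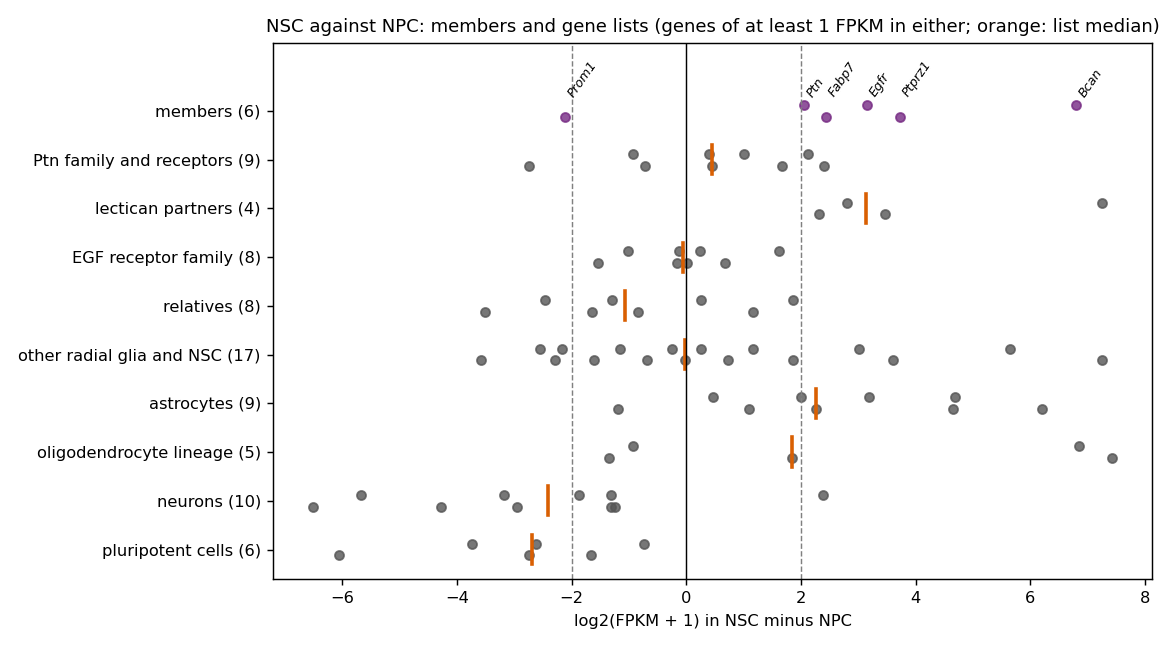
Difference in log2(FPKM + 1) between NSC and NPC (NSC minus NPC) for the members (purple, top row) and for each gene list (grey), each point a gene of at least 1 FPKM in either column, with the number of genes in brackets. Orange lines are list medians and dashed lines stand at 2 log2 units. Bcan lies at 6.80 and Prom1 at -2.11, lectican partners lie to the right of 2, and the EGF receptor family lies between the dashed lines.

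In the RA table the highest value of any member across the 8 libraries was 9.55 FPKM, that of Ptn in WT-2 at day 4. Libraries held about 9.05 to 16.4 M reads, judged as above. Haunt, listed as Gm15055, stood at 3.08 and 0.447 FPKM for KO-i and KO-j against 31.8 and 40.6 FPKM for WT-1 and WT-2 on day 4. At day 2 it was at 1.13 and 0 FPKM for KO-i and KO-j against 128 and 142 FPKM for WT-1 and WT-2, so the low libraries were those labelled as deleted. The filter for testing asked for 1 FPKM or more in 2 or more of the 8 libraries and passed 15705 genes. It passed 5 of the 8 members, Ptn, Bcan, Ptprz1, Egfr and Prom1, with Bcan only through its day 2 values. Fabp7, Aqp4 and Gfap did not pass and were not tested in that fit.

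**Figure D3:**
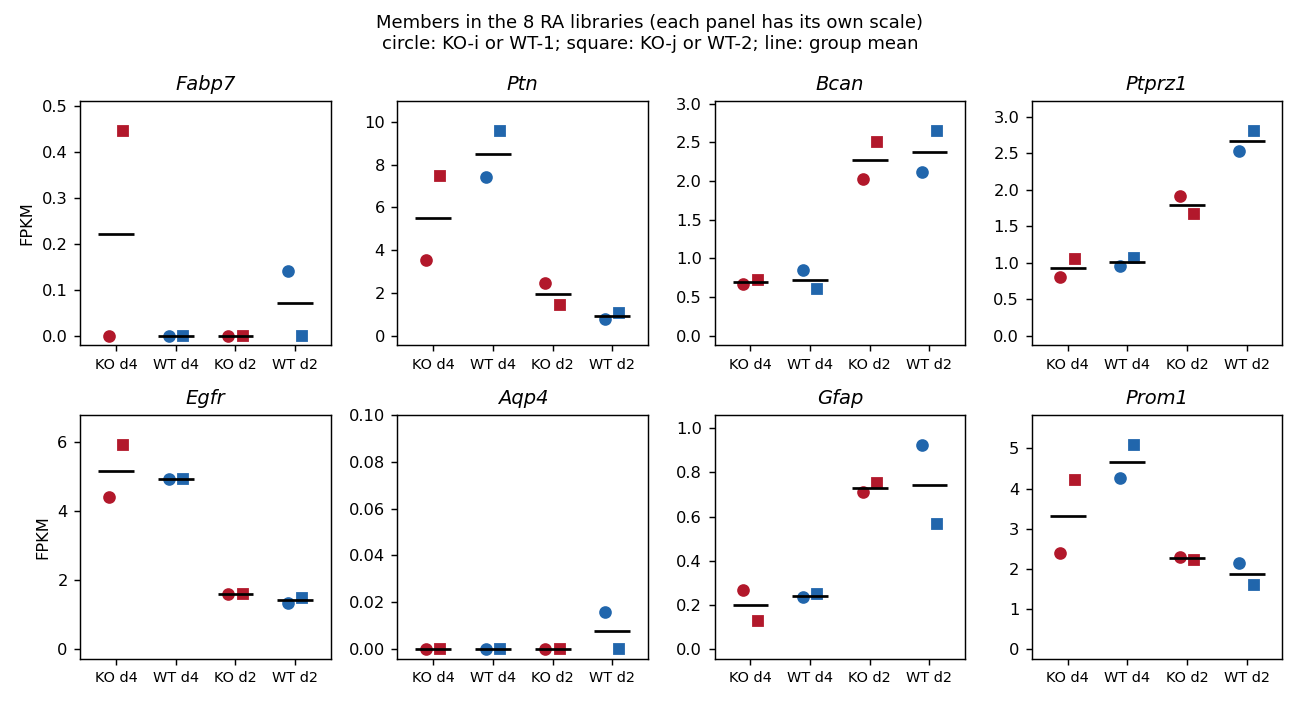
FPKM of each member in the 8 RA libraries, grouped from left to right as 58 kb KO and WT at day 4 and 58 kb KO and WT at day 2. Circles are KO-i or WT-1, squares are KO-j or WT-2, and lines are means of 2 libraries; each panel has its own scale from 0. Ptn and Egfr lie higher at day 4 than at day 2, Bcan, Ptprz1 and Gfap lie higher at day 2, and Fabp7 and Aqp4 are listed at 0 in most libraries.

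From day 2 to day 4 of RA, Egfr rose in 58 kb KO cells, and in WT cells Ptn, Egfr and Prom1 rose and Ptprz1 fell. Bcan was called lower in both genotypes, but it entered the test only through its day 2 values and could be called in no other direction. Over all tested genes, 10% rose and 7.81% fell in KO cells by limma at an adjusted p under 0.05, and 14.4% rose and 10.9% fell in WT cells. For Ptn, Ptprz1, Egfr and Prom1 the day 4 libraries did not overlap the day 2 libraries in either genotype, and for all tested genes this held for 59.8% in KO and 68.8% in WT cells. The members' calls thus stand against a course in which a large share of all genes moved.

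Ptn, the ligand, stood at 3.52 and 7.49 FPKM for KO-i and KO-j on day 4, against 2.44 and 1.43 FPKM at day 2. In WT-1 and WT-2 it stood at 7.43 and 9.55 FPKM at day 4, against 0.767 and 1.06 FPKM at day 2. Day 4 libraries lay above day 2 libraries in both genotypes, with KO-i the lowest of the day 4 libraries. The KO change was 1.10 log2 units (SE 0.319, limma adjusted p = 0.0530) and did not pass. Leaving out 1 KO library at a time, the change ran from 0.64 log2 units without KO-j at day 4 (limma adjusted p = 0.165) to 1.55 without KO-i at day 4 (0.0313), and only the omission of KO-i at day 4 gave a call. The WT change was 2.30 log2 units (SE 0.319, limma adjusted p = 0.00304).

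Egfr stood at 4.41 and 5.90 FPKM for KO-i and KO-j and at 4.92 and 4.91 FPKM for WT-1 and WT-2 on day 4. At day 2 it stood at 1.59 and 1.61 FPKM for KO-i and KO-j and at 1.35 and 1.49 FPKM for WT-1 and WT-2. The day 4 values were all above 4 FPKM and the day 2 values all below 2 FPKM. Its change was 1.23 log2 units in KO cells (SE 0.172, limma adjusted p = 0.00658) and 1.29 in WT cells (SE 0.172, limma adjusted p = 0.00261). Egfr was the member that rose in both genotypes, although in KO cells the call ended when the fit held only the groups compared (limma adjusted p = 0.0551).

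Ptprz1, the pleiotrophin receptor gene, stood at 0.809 and 1.05 FPKM for KO-i and KO-j on day 4, against 1.91 and 1.67 FPKM at day 2. In WT-1 and WT-2 it stood at 0.955 and 1.06 FPKM at day 4, against 2.53 and 2.80 FPKM at day 2. All day 4 values of the receptor gene lay below all day 2 values, the reverse of the ligand, whereas in the lineage columns both were high in NSC. The change of Ptprz1 was -0.53 log2 units in KO cells (SE 0.178, limma adjusted p = 0.0779) and -0.87 in WT cells (SE 0.178, limma adjusted p = 0.0125). The WT call ended without any 1 of the 4 WT libraries, at limma adjusted p-values of 0.0575 to 0.0813.

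Bcan, the matrix member, stood at 0.673 and 0.714 FPKM for KO-i and KO-j and at 0.844 and 0.601 FPKM for WT-1 and WT-2 on day 4. At day 2 it stood at 2.03 and 2.51 FPKM for KO-i and KO-j and at 2.11 and 2.64 FPKM for WT-1 and WT-2. The day 4 libraries all lay under 1 FPKM and the day 2 libraries all above 2 FPKM. Bcan fell by 0.94 log2 units in KO cells (SE 0.194, limma adjusted p = 0.0191) and by 0.97 in WT cells (SE 0.194, limma adjusted p = 0.0112). Since the filter was passed only through day 2, this call is given as a description. The WT call ended without WT-2 at day 2 or at day 4 (limma adjusted p = 0.0802 and 0.0738). The KO call ended without KO-j at day 2 or KO-i at day 4 (limma adjusted p = 0.0933 and 0.0689) and when only the groups compared were fitted (0.0776).

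Prom1 stood at 2.41 and 4.22 FPKM for KO-i and KO-j on day 4, against 2.30 and 2.24 FPKM at day 2, so KO-i hardly differed between the days. In WT-1 and WT-2 it stood at 4.27 and 5.08 FPKM at day 4, against 2.14 and 1.59 FPKM at day 2. The change was 0.37 log2 units in KO cells (SE 0.233, limma adjusted p = 0.305) and 0.99 in WT cells (SE 0.233, limma adjusted p = 0.0201). Without any 1 of the 4 WT libraries the WT call ended (limma adjusted p = 0.0596 to 0.121).

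The 3 members under the filter were low throughout. Gfap stood at 0.267 and 0.130 FPKM for KO-i and KO-j and at 0.237 and 0.249 FPKM for WT-1 and WT-2 on day 4. At day 2 it stood at 0.710 and 0.753 FPKM for KO-i and KO-j and at 0.923 and 0.566 FPKM for WT-1 and WT-2. All day 4 values lay below all day 2 values. In a fit with no filter (27709 genes), its day 4 against day 2 difference was -0.53 log2 units in KO cells and -0.48 in WT cells (limma adjusted p = 0.0685 and 0.0645). Gfap lies inside the span of Gm17536, which reached 0.889 FPKM, and in libraries without strand marking the reads of such a pair cannot be assigned to either gene with certainty. Fabp7 was listed at 0.445 FPKM in KO-j at day 4 and at 0.140 FPKM in WT-1 at day 2, and at 0 in the other 6 libraries. Aqp4 was listed at 0.0158 FPKM in WT-1 at day 2 and at 0 in the other 7. Fabp7, 1 of the leading genes of both neural columns in the lineage table, was thus all but undetected under RA.

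**Figure D4:**
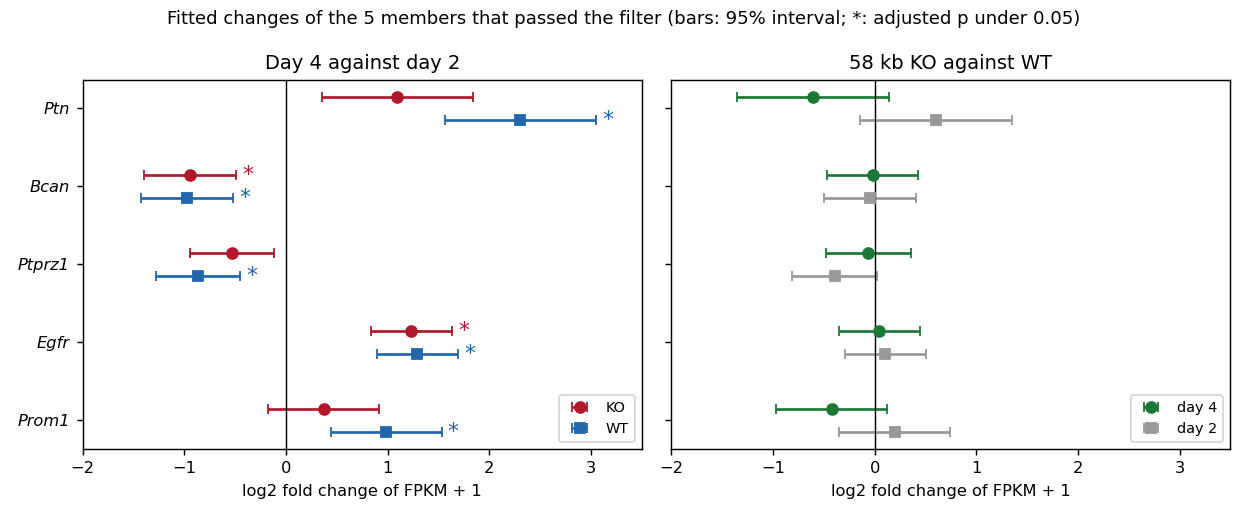
Fitted log2 fold changes of FPKM + 1 for the 5 tested members, with 95% intervals. The left panel gives day 4 against day 2 in 58 kb KO (circles) and WT (squares) cells, and the right panel gives 58 kb KO against WT at day 4 (circles) and day 2 (squares); asterisks mark a limma adjusted p under 0.05. All intervals of KO against WT include 0, and in the left panel Egfr and Bcan carry asterisks in both genotypes and Ptn, Ptprz1 and Prom1 in WT cells.

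Companion genes followed the same course in part. Of 11 tested genes of the Ptn family and receptors, 2 rose and 0 fell in KO cells (median 0.30 log2 units against 0.037 over all genes), and 4 rose and 0 fell in WT cells (median 0.49 against 0.042). Sdc3, a syndecan that binds pleiotrophin, stood at 5.75 and 8.63 FPKM for WT-1 and WT-2 on day 4 against 1.28 and 1.52 FPKM at day 2, and rose there by 1.75 log2 units (SE 0.310, limma adjusted p = 0.00740). Of 7 tested genes of the EGF receptor family and ligands, 3 rose and 0 fell in each genotype, with medians of 0.60 in KO and 0.51 in WT cells. These were Nrg1 and Hbegf, which encode ligands of the family, and Errfi1, which encodes an inhibitor of the receptors. Nrg1 stood at 3.82 and 3.67 FPKM for KO-i and KO-j and at 8.36 and 8.01 FPKM for WT-1 and WT-2 on day 4, against 1.87 and 1.42 FPKM for KO-i and KO-j and 1.91 and 1.76 FPKM for WT-1 and WT-2 on day 2.

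Of 6 tested lectican partners, 2 rose and 1 fell in KO cells and 1 rose and 1 fell in WT cells (medians -0.027 and -0.14). Ncan fell with Bcan in both genotypes, by 0.74 log2 units in KO cells and by 0.89 in WT cells (limma adjusted p = 0.0488 and 0.0196). Tnc rose in both, by 1.26 and 1.24 log2 units in KO and WT cells (limma adjusted p = 0.00929 and 0.00555). Of 11 tested relatives of Fabp7, Aqp4, Gfap and Prom1, 3 rose and 2 fell in KO cells and 3 rose and 5 fell in WT cells (medians -0.45 and -0.31). Vim and Nes rose in both genotypes, and Vim stood at 192 and 290 FPKM for KO-i and KO-j and at 293 and 319 FPKM for WT-1 and WT-2 on day 4. At day 2 it stood at 75.9 and 103 FPKM for KO-i and KO-j and at 112 and 127 FPKM for WT-1 and WT-2.

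Of 16 other radial glia and NSC genes tested, 8 rose and 1 fell in KO cells and 8 rose and 2 fell in WT cells, with medians of 0.66 and 0.67 log2 units. Cdh2 (N-cadherin), Sox9 and Slc1a3 (the glial glutamate transporter GLAST) were among those that rose in both genotypes, and Sox2 fell in both. Slc1a3 stood at 3.70 and 4.86 FPKM for KO-i and KO-j and at 7.17 and 7.85 FPKM for WT-1 and WT-2 on day 4, against 1.74 and 2.01 FPKM for KO-i and KO-j and 2.16 and 3.22 FPKM for WT-1 and WT-2 on day 2. The astrocyte list had 0 of 6 tested genes rise or fall in KO cells, and 1 rise (Glul, which encodes glutamine synthetase) and 1 fall (Sox8) in WT cells. In KO cells 2 of the 6 had an unadjusted limma p under 0.05, as had 34.2% of all tested genes.

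Marker genes of extraembryonic endoderm, pluripotent cells and neurons also moved over the same days. Extraembryonic endoderm genes summed to 519 and 547 FPKM for KO-i and KO-j and to 956 and 981 FPKM for WT-1 and WT-2 on day 4, and to 152 and 124 FPKM for KO-i and KO-j and 130 and 152 FPKM for WT-1 and WT-2 on day 2. Of these 10 genes, 6 rose in KO cells and 9 in WT cells. Pluripotency genes summed to 61.9 and 103 FPKM for KO-i and KO-j and to 73.9 and 77.5 FPKM for WT-1 and WT-2 on day 4. At day 2 they summed to 195 and 422 FPKM for KO-i and KO-j and to 386 and 521 FPKM for WT-1 and WT-2, with KO-i the lowest. Neuronal genes summed to 12.7 and 20.2 FPKM for KO-i and KO-j and 14.9 and 18.1 FPKM for WT-1 and WT-2 on day 4, and at day 2 to 37.6 and 74.7 FPKM for KO-i and KO-j and 82.5 and 93.6 FPKM for WT-1 and WT-2. Of the 10 neuronal genes 5 were tested, of which 3 fell in KO cells and 4 in WT cells. In the lineage columns the neuronal list summed to 177 FPKM in ES cells at day 0, so its level is not particular to neurons. The part of these cell types in the members' changes was not tested.

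Between 58 kb KO and WT cells no member passed at either day. At day 4 limma called 0% of the tested genes at an adjusted p under 0.05, and 14.4% had an unadjusted p under 0.05; at day 2 it called 0.0255%, and 5.11% had an unadjusted p under 0.05. No member had an unadjusted p under 0.05 at either day. The KO libraries did not overlap the WT libraries for 1 of 5 members at day 4 (Prom1) and for 4 of 5 at day 2 (Ptn, Ptprz1, Egfr and Prom1), against 46.6% of all tested genes at day 4 and 37% at day 2. The 95% intervals, on the log2(FPKM + 1) scale, bound what could have been missed, and they are widest for Ptn.

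For Ptn the KO and WT libraries overlapped at day 4 and did not at day 2, as the values above show. The KO against WT difference was -0.61 log2 units at day 4 (95% interval -1.35 to 0.14, limma adjusted p = 0.420) and 0.60 at day 2 (-0.14 to 1.35, limma adjusted p = 0.880). The day 4 difference was -1.06 without KO-j and -0.15 without KO-i (limma adjusted p = 0.133 and 0.919). The change over the days differed by -1.21 log2 units between KO and WT cells (SE 0.452, unadjusted p = 0.0298, limma adjusted p = 0.843), and limma called 0% of all genes for this difference, with 5.56% under an unadjusted p of 0.05. Ptn and Ptprz1 lie on chromosome 6, where the median of 346 genes stood above the WT mean in both KO libraries. At day 4 this shift was 0.066 log2 units (KO-i) and 0.17 (KO-j), and at day 2 it was 0.074 (KO-i) and 0.20 (KO-j). The part of this shift in the values of Ptn and Ptprz1 was not tested.

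Ptprz1 differed by -0.061 log2 units at day 4 (95% interval -0.48 to 0.35) and by -0.39 at day 2 (-0.81 to 0.021, unadjusted p = 0.0597, limma adjusted p = 0.880), when both KO libraries lay below both WT libraries. For Egfr the difference was 0.047 log2 units at day 4 (-0.35 to 0.45) and 0.11 at day 2 (-0.29 to 0.51). Bcan stood at a difference of -0.021 at day 4 (-0.47 to 0.43) and -0.046 at day 2 (-0.50 to 0.41). On the log2(FPKM + 1) scale, differences of more than about 0.5 units in Egfr and Bcan thus lay outside these intervals. This scale understates fold changes of low genes, such as Bcan, which lay under 1 FPKM at day 4. The SE of Bcan was 0.194 at a pseudocount of 1 and 0.323 at 0.1, so its intervals do not bound its fold change in FPKM. Prom1 was lower in both KO libraries than in both WT libraries at day 4, with a difference of -0.42 (-0.97 to 0.12, limma adjusted p = 0.435), and stood at 0.20 at day 2 (-0.35 to 0.74). Its day 4 difference was -0.73 without KO-j and -0.12 without KO-i (limma adjusted p = 0.148 and 0.919). The change of Prom1 over the days differed by -0.62 log2 units between KO and WT cells (limma adjusted p = 0.901), that of Ptprz1 by 0.33 (0.934), that of Egfr by -0.059 (0.997) and that of Bcan by 0.025 (0.999).

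No gene of the companion and marker lists passed between KO and WT cells either. Of the 87 distinct genes tested in them, 19 had an unadjusted limma p under 0.05 at day 4 and 6 at day 2. Over all tested genes this held for 14.4% at day 4 and 5.11% at day 2. At day 4, 9 of these 19 were among the 10 extraembryonic endoderm genes, whose median difference was -0.89 log2 units against 0.021 over all genes. The 16 other radial glia and NSC genes had median differences of -0.31 and -0.11 on days 4 and 2, and 2 and 3 of them had an unadjusted p under 0.05.

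The genes most like the members were taken by Pearson correlation of log2(FPKM + 1) among named genes of at least 5 FPKM in at least 1 column, as a description without a test. Across the 8 RA libraries, which span 2 genotypes and 2 days so that genes differing between the days correlate, Ptn lay closest to Luzp1 (r = 0.989), Sdc3 (0.987) and Wiz (0.985) among 10466 genes. Egfr lay closest to Lphn2 (0.996), Tbx2 (0.995) and Bcl9 (0.993), and Prom1 to Zfp503 (0.989) and Rit1 (0.980). The pleiotrophin-binding syndecan Sdc3 was thus second of the 10466 genes compared for Ptn. Many genes lay close to Ptn, and Prom1, with an r of 0.945, was only 240th.

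Across the 7 lineage columns, where a single high column such as NSC carries most of a correlation, 9710 genes were compared. Fabp7 and Ptn had an r of 0.979 with each other, Ptprz1 had 0.950 with Fabp7, and Bcan and Ptprz1 had 0.949, while Prom1 had -0.41 with Bcan. The closest named genes were AK031097 (0.998) and Ncald (0.997) for Fabp7 and Mapk8ip1 (0.998) and Clip3 (0.993) for Ptn. Those of Bcan were Ppargc1a and Nptx1 (both 1.000) and those of Ptprz1 Sorcs1 (0.999) and Sez6 (0.997). For Egfr they were Gtf3c1 (0.986) and Syvn1 (0.974), and for Prom1 Zfp608 (0.988) and Efnb2 (0.975).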

How the data were processed

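The authors deposited FPKM values; the unit was read from the steps and range of the numbers, as the headers do not give it, and the program behind them was not given in the sources used here. Per the submitters' processing notes, TopHat2 2.0.11 and Bowtie 1.0.0 were among the tools and mm9 was the build. Library preparation kept strand for the lineage samples and not for the RA samples, per the labels' protocols. Groups came from the labels, which do not say that libraries of a group were separate cultures, so p-values reflect only how these samples vary, which may be technical. Depths were estimated from the steps between low values and are approximate.

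In the RA table log2(FPKM + 1) of 15705 genes was fitted with limma 3.58.1 in R 4.3.3 (4 groups of 2 libraries, with a trend on intensity; residual degrees of freedom 4, prior 3.5), with Benjamini-Hochberg adjustment over all genes and a threshold of 0.05. Fold changes on this scale understate those of low genes. The lineage table has 1 column a group and no test. Differences past 2 log2 units were counted among genes of at least 1 FPKM in either column. A gene under 1 FPKM in 1 of the columns could thus be counted only as higher in the other. Exact 0 values may be failed estimates and are called listed at 0. The fit was tested on simulated data. All 8 members were named; of each list up to 4 genes were named, by the smallest limma p in WT cells or the highest NSC value, and others only where a count of 5 or fewer or a marker needed a name, which were chosen after their values were seen. The members and lists were chosen with earlier results of these data known. Alternatives were other pseudocounts, filters, scalings, spreads and blocks, and leaving out each library.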

Additional observations from a re-analysis of the deposited data

How the results depend on the processing

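With only the groups compared in the fit, 0 members were called up and 0 down in KO cells between days 4 and 2, and with a filter of 5 FPKM 0 up and 0 down in KO cells and 1 up and 0 down in WT cells, since most members then left the test. With no intensity trend 2 members fell in KO cells, and leaving out each library gave 1 to 2 up and 0 to 1 down in KO cells and 2 to 3 up and 0 to 2 down in WT cells. Over all genes, day 4 against day 2 in KO cells gave 957 up and 639 down with no filter and 237 and 159 with only the groups compared, against 1576 and 1226 as reported. It gave 1399 and 1075 with no intensity trend. With the 5 FPKM filter it gave 1446 and 996 in KO cells and 1878 and 1292 in WT cells. Leaving out each library gave 526 to 1213 up and 425 to 946 down in KO cells and 908 to 2393 up and 586 to 1880 down in WT cells. The only-groups fit has fewer samples, and it was not run for the difference of changes, which needs all 4 groups. The causes of the shifts were not tested.

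Between KO and WT cells at day 4, 1 gene was called down with a pseudocount of 0.1 and 1 with no filter, and 0 to 3 were called up and 0 to 4 down without each library. At day 2, 0 were called up with the 5 FPKM filter, 0 up and 0 down with only the groups compared, 6 down with no filter, and 0 to 1 up and 0 to 4 down without each library. For the difference of changes 3 genes were called up and 2 down with no filter, 1 down with no trend and 0 to 1 down without each library. Of 390 fold changes of members under the alternatives, 9 changed sign, each without 1 library and none of them called. Without each library in turn, Bcan between KO and WT ran from -0.12 to 0.081 at day 4, from -0.16 to 0.067 at day 2 and from -0.088 to 0.14 in the difference. Ptprz1 ran from -0.15 to 0.028 and Egfr from -0.13 to 0.22 at day 4, and Egfr from -0.23 to 0.12 in the difference. Prom1 in WT cells lost its call with no filter (limma adjusted p = 0.0564), at the same change of 0.99.

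The labels repeat each library's letter or number at both days without saying what it stands for: deviations from the group means correlated between days 4 and 2 at 0.260 for the KO names and 0.0849 for the WT names. With the name as a replicate block, 1 member rose and 1 fell in KO cells and 3 rose and 2 fell in WT cells, as reported. Over all genes this fit called 2045 up and 1660 down in KO cells and 2650 up and 2133 down in WT cells. The members that fell include Bcan, which entered only through its day 2 values. As a random effect the block gave 2 members up and 2 down in KO cells, adding Ptn and Ptprz1 (limma adjusted p = 0.0329 and 0.0437). Over all genes it gave 2317 up and 1869 down in KO cells.

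In the lineage table a pseudocount of 0.1 gave 1790 genes up and 1611 down in NSC against ES cells, 1239 and 1062 in NPC against ES cells, 984 and 1098 in NSC against NPC, 692 and 965 in ME against ES cells and 823 and 624 at day 6 against day 0. For days 2 and 4 against day 0, comparisons added after seeing the data, it gave 262 up and 411 down and 484 and 750. These counts are higher since low genes then differ more. With this pseudocount Prom1 at day 2 passed 2 log2 units at 2.01, and Egfr and Fabp7 passed them at day 6. The FPKM ratio of day 6 to day 0 was 5.69 for Egfr and 4.75 for Fabp7. Of 112 differences of members under the alternatives, 90 shifted by less than 1.5 times on the linear scale and 22 by more. Genes near 1 FPKM, such as Bcan and Ptprz1 under RA, may rest on few reads at these depths, the more so where the transcript is short.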
